A study of Mus musculus with 16 samples.

Results

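The cytosolic ribosomal protein genes were described across 4 kinds of mouse sensory ganglion. They were taken by symbol: every row that begins with Rpl or Rps and a digit, and *Rplp0*, *Rplp1*, *Rplp2* and *Rpsa*. The rule found 86 of 22609 gene symbols, of which 31 encode proteins of the small subunit, 46 proteins of the large subunit and 9 are close variants or a name-alike. The 9 are *Rpl3l*, *Rpl7l1*, *Rpl10l*, *Rpl22l1*, *Rpl36al*, *Rpl39l*, *Rps27l*, *Rps4y2* and *Rps19bp1*. The product of *Rps19bp1* binds a ribosomal protein and is not itself a part of the ribosome, and *Rps4y2* is listed by RefSeq as *Rps4l*, a transcribed pseudogene. The 10 rows of the S6 kinase family (Rps6k) and 3 rows marked as pseudogenes (-ps) were left out.

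A ribosome is built from ribosomal RNA and a set of proteins of which nearly every one is present in a single copy. The small subunit reads the mRNA, and the large subunit joins the amino acids and carries a flexible stalk, made of Rplp0, Rplp1 and Rplp2, which recruits the translation factors. Many ribosomal protein mRNAs begin with a C and a run of pyrimidines, the TOP element, through which mTOR signalling controls their translation, and the genes have left many processed pseudogenes in mammalian genomes. In sensory neurons ribosomes are needed in the large cell body, and local translation in axons has been linked to injury responses and pain.

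RNA came from neurons marked by TdTomato and purified by 2 rounds of FACS, from trigeminal ganglia (TG, which serve the face), nodose/jugular ganglia (NG/JG, the vagal ganglia), lumbar L3-L5 dorsal root ganglia (DRG) and thoracolumbar T10-L1 DRG. Each ganglion had 4 libraries, 16 in all. All mice were naive young adult C57BL/6J males, each with a Cre allele at *Pirt*, a gene of sensory neurons (Pirt cre/-), and with a Cre-dependent TdTomato allele at Rosa26 (LSL-tdTomato/+). By these labels the groups differ by ganglion alone, with no treated group and no sequenced group without the reporter. The study's methods state that the neurons used per library varied with the kind of ganglion, though its results call the numbers roughly similar. Input may therefore differ between the ganglia too, and its part in the values below was not tested. Only brightly labelled cells were taken, so that weakly labelled cells are missing from every group. The sources used here do not tie a library to an animal, so the p-values measure the spread between these libraries, which may be partly technical.

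The libraries held 4735624 to 13333318 reads on genes (median 8332661), and 3 counts, used as the floor, corresponded to 0.225 to 0.633 CPM (counts scaled to the reads on genes). The floor covers counting error alone, because molecules were not tagged before amplification. Of uniquely aligned reads, 29.6% to 66.6% fell outside genes, with L3-L5 DRG library 4 (66.6%) and T10-L1 DRG library 1 (51.5%) highest. Although the mice are given as male, *Xist* had 1279 to 8362 counts in every library, and the 13 genes of chromosome Y had 0 counts in all. The defining markers of sensory neurons were present, 10 of 10 in each ganglion, with a summed level of 930 to 12485 CPM over the libraries. Those of satellite glia (7 of 7, 13159 to 64533 CPM) and of Schwann cells (6 of 6, 8029 to 54214 CPM) were present as well, and the satellite glia sum was above the neuron sum in every library. In such bulk samples fewer cells of a type and less RNA per cell cannot be told apart.

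Because reads of 50 bases that aligned to several places were kept apart from the gene counts, the sequence of a ribosomal protein gene sets what can be counted. The following windows of 50 bases, each from the middle of the coding sequence, are shown because they span the range from a window found once to a window found in many copies. Capitals mark the 3 bases on each side of a junction between exons, where the window crosses one.
Rps3: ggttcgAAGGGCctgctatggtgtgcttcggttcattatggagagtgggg
Rpl8: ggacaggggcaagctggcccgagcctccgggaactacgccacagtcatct
Rpl4: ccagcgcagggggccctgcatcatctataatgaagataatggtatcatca
Rpl21: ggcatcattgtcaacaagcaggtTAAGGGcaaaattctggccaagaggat
Rps12: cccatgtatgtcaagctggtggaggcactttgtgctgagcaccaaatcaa
On mm9 they lie at chr7:106628533-106630215 (*Rps3*, minus strand), chr15:76735330-76735379 (*Rpl8*, plus), chr9:64024807-64024856 (*Rpl4*, plus), chr5:147646655-147647163 (*Rpl21*, plus) and chr10:23505718-23505767 (*Rps12*, minus; chosen after its values were seen), each within coding exons. The *Rps3* window crosses an intron, and its joined sequence had 0 whole copies in the genome. The *Rpl8* and *Rpl4* windows occurred 1 time, in the gene itself. The *Rpl21* window crosses an intron and was nevertheless found whole 25 times, and the *Rps12* window was found 9 times.

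Over the 85 members with a transcript in the annotation used here, the median share of coding windows of 50 bases that occur nowhere else on mm9 was 9.75%, and 29 members had no such window. The same median was 98.2% for 76 mitochondrial ribosomal protein genes, 97.8% for 40 proteasome subunit genes and 97.6% for 86 genes of the respiratory chain. Here and below, these 3 lists were taken by the start of the symbol. They therefore hold some genes that are not subunits, such as *Psmc3ip* and *Ndufaf1*. Of windows that cross a junction of exons, a median of 85.0% were found whole in the genome for the members, against 6.12%, 4.89% and 5.19% for those 3 lists. Levels per length were set beside this share. They are given as reads per kilobase of transcript after scaling to depth (RPKM, mean over the 16 libraries). The 43 members with under 10% unique coding windows had a median of 3.97 RPKM (range 0.210 to 47.2). The 42 others had a median of 46.5 RPKM. Over the 85 members, Spearman's rho of mean RPKM with unique coding windows was 0.618. Over the whole transcript, whose length RPKM used, the median share of unique windows was 39.7% and rho was weaker, at 0.325. The 49 members under 50% unique there had a median of 11.4 RPKM, and the 36 others 28.9 RPKM. Each rho is across genes measured in the same libraries, which are not independent replicates. The part of unique sequence in these levels was not tested. Because reads aligned to several places were not counted, a member's RPKM is a level of reads that could be assigned. A member listed near 0 is not shown to be absent.

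**Figure D1:**
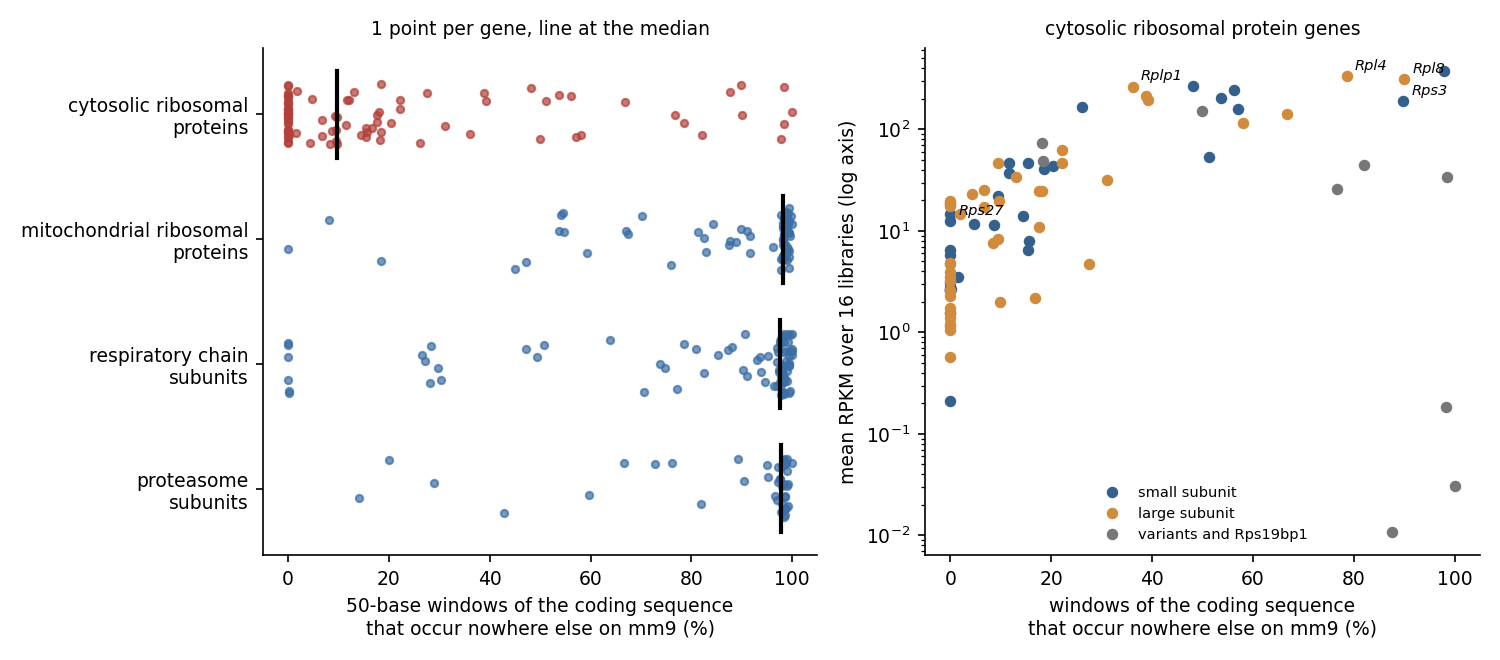
Left, share of 50-base coding windows that occur nowhere else on mm9 (%), with 1 point per gene and a black bar at the median: the ribosomal protein genes have a median of 9.75%, the 3 other lists lie at 97.6% to 98.2%. Right, mean RPKM over 16 libraries (log axis; members listed at 0 are left out) against the same share for the members, coloured by subunit, with *Rps3*, *Rpl8* and *Rpl4* at the upper right and *Rps27* at 0%.

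Variant genes differ from their parents in such windows, which is shown here for a pair of each subunit. The *Rps27* window (chr3:90016930-90017127, minus) and the *Rps27l* window (chr9:66794734-66795430, plus) share 41 of 50 bases. The *Rpl36a* window (chrX:131121076-131121997, plus) and the *Rpl36al* window (chr12:70283939-70283988, minus) share 42 of 50. Capitals again mark the bases beside a junction.
Rps27: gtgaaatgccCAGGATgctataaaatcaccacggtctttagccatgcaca
Rps27l: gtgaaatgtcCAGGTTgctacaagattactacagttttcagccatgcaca
Rpl36a: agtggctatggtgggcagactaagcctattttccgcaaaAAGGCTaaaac
Rpl36al: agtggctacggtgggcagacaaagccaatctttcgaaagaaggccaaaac
The *Rps27* window was found whole 2 times in the genome, and the *Rps27l* window 0 times, so that by exact match a read across this junction has a single place for the variant and several for the parent. Both the *Rpl36a* and the *Rpl36al* windows were found 2 times. The *Rpl36al* window lies within an exon, so the gene itself is among its copies. The *Rpl36a* window crosses a junction, so its whole copies lie outside the gene.

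Starts of transcripts were read from RefSeq promoters (table build GRCm38.p6), which were given for 65 of the 86 members. Each printed stretch runs from 10 bases before the start to 20 bases from it and was placed on mm9 by an exact match. The 4 shown carry a C at the start and pyrimidines after it (capitals), and they are shown because these members move in different ways in the data.
Rpl15: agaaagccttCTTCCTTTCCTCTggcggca
Rps10: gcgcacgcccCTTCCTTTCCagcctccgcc
Rps18: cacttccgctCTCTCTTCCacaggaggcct
Rps27: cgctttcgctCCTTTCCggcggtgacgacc
They lie at chr14:19103481-19103510 (*Rpl15*, minus; chosen after its values were seen), chr17:27772170-27772199 (*Rps10*, minus), chr17:34092591-34092620 (*Rps18*, minus) and chr3:90017551-90017580 (*Rps27*, minus). The runs have 13, 10, 9 and 7 bases. Where a gene had several promoters, a feature in any of them was counted. A start with C and at least 4 further pyrimidines was present in 13 of 65 members (20%) and in 800 of 26960 other gene symbols (2.97%). Among letters searched on both strands in the whole promoter, CCGGAAGT was found in 18.5% of the members and 4.27% of the others, AAGATGG in 15.4% and 7.26%, CTTTCC in 53.8% and 29.3%, CCGCCC in 63.1% and 38.1%, and TATAAA in 10.8% and 15.7%. These are matches of letters only, and a RefSeq start may lie a few bases from the start used in these neurons.

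The share of reads on genes that fell on the 86 members was highest in TG. The TG libraries had 0.387%, 0.867%, 0.743% and 0.758%, a mean of 0.689% ± 0.209 (SD, n = 4). The NG/JG libraries had 0.264%, 0.305%, 0.259% and 0.273% (0.275% ± 0.0209), the L3-L5 DRG libraries 0.336%, 0.267%, 0.236% and 0.404% (0.311% ± 0.0749) and the T10-L1 DRG libraries 0.288%, 0.301%, 0.241% and 0.382% (0.303% ± 0.0585). TG libraries 2 to 4 lay above all 12 libraries of the other ganglia, whereas TG library 1 lay below L3-L5 DRG library 4 and just above T10-L1 DRG library 4. The mean share in TG was 2.50 times that in NG/JG, 2.22 times that in L3-L5 DRG and 2.27 times that in T10-L1 DRG, and TG libraries 2 to 4 had on average 0.789%, 2.04 times the share of TG library 1. No test was made of this sum over the members.

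**Figure D2:**
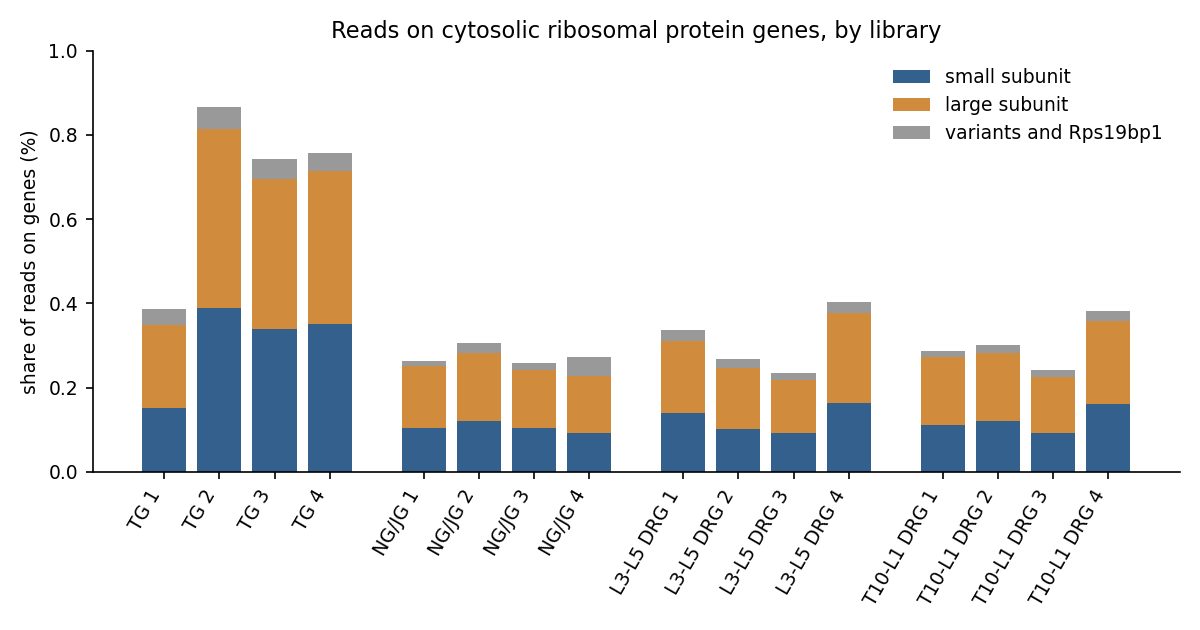
Stacked bars give the share of reads on genes (%) that fell on the small subunit, the large subunit and the variants with *Rps19bp1* in each of the 16 libraries. TG libraries 2 to 4 reach 0.743% to 0.867%, and the 13 other bars end at 0.236% to 0.404%.

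Both subunits had their highest mean share in TG. The small subunit took 0.308% ± 0.107 of the reads in TG and 0.106% to 0.124% in the other ganglia, a ratio of 2.91 to NG/JG, 2.48 to L3-L5 DRG and 2.53 to T10-L1 DRG. The large subunit took 0.336% ± 0.0972 in TG and 0.145% to 0.164% elsewhere, with ratios of 2.32, 2.05 and 2.06. The variants with *Rps19bp1* took 0.0447% ± 0.00569 in TG and 0.0185% to 0.0244% elsewhere. The large subunit had between 1.03 and 1.48 times the reads of the small subunit in every library.

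Other measures also differed between the libraries, not all in the order of the member share. Alignments of reads placed at several positions, per read on genes, were 2.00 to 2.38 in TG libraries 2 to 4 and 1.35 in TG library 1. They were 1.29 to 1.45 in NG/JG, 0.982 to 1.12 in 6 DRG libraries, 3.72 in L3-L5 DRG library 4 and 2.12 in T10-L1 DRG library 1. The summed markers of satellite glia were 33746 CPM in TG library 1, 54609 to 64533 CPM in TG libraries 2 to 4 and 13159 to 45786 CPM elsewhere. The summed markers of oligodendrocytes were 277 to 1541 CPM in TG, with TG library 1 highest, and 2.07 to 410 CPM elsewhere, and of these markers *Opalin* was at 0 in both DRG groups. The other short genes, 3147 non-member genes with at most 1000 bp of exon, took 3.81% of the reads in TG library 1, 9.32% to 9.63% in TG libraries 2 to 4 and 2.63% to 3.65% elsewhere. The part of each of these in the share of ribosomal protein reads was not tested.

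Reads were concentrated on a few members. *Rpl4*, of the large subunit near the exit tunnel, held 13.4% of member reads on average, *Rps3*, at the entry of the mRNA channel, 9.01%, *Rplp0* of the stalk 6.83% and *Rpl8*, next to the peptidyl transferase centre, 6.74%. The 10 largest held 60.9%. Per length, *Rpl4* at 336 ± 83.7 RPKM (SD over 16 libraries) was among the highest, before *Rpl8* at 313 ± 178, *Rps14* at 266 ± 208 and *Rplp1* at 264 ± 216 RPKM. These SDs include the differences between ganglia, and the order of neighbours was not tested. The lowest of the members tested were *Rpl5* and *Rpl11*, which form a complex with 5S RNA that also binds Mdm2, at 0.575 ± 0.254 and 1.15 ± 0.970 RPKM, *Rpl17* at 1.22 ± 1.47, *Rpl21* at 1.37 ± 1.33 and *Rpl19* at 1.54 ± 1.07 RPKM. All 5 of these had 0% unique coding windows, as had 29 of the 85 members with a transcript. Over the whole transcript, which RPKM used, the unique share was 51.3% in *Rpl5* and 71.7% in *Rpl21*. It was 30.6% in *Rpl11*, 14.6% in *Rpl17* and 6.98% in *Rpl19*, with a median of 39.7% over the members. The part of unique sequence in these low levels was not tested.

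Of the 86 members, 83 had over 3 counts in at least 1 library, *Rpl39l* had 2 counts in all, *Rpl10l* had 1, and *Rpl26* (chosen after its values were seen) had 0 counts in all 16 libraries, which allows up to the 3 counts of the floor in each. Of the 83, 66 had their highest mean CPM in TG, 10 in NG/JG, 4 in L3-L5 DRG, and the 3 left in T10-L1 DRG. The lowest mean lay in NG/JG for 45, in L3-L5 DRG for 17, in T10-L1 DRG for 17 and in TG for 4. These counts of highest and lowest means were not made over all genes. They therefore do not show a trait of the members apart from the libraries. All 4 TG libraries lay above the 12 others for 11 members, where this held for 0.887% of 18830 genes with over 3 counts. Among the 11 were *Rps7*, *Rps10*, *Rps15*, *Rps18*, *Rps24*, *Rpl8*, *Rpl23*, *Rpl27a*, *Rpl32* and *Rpl38*. TG libraries 2 to 4 lay above the 12 others for 46 members (4.7% of all genes). TG library 1 was the lowest of the TG libraries for 68 members (36.2% of all genes).

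**Figure D3:**
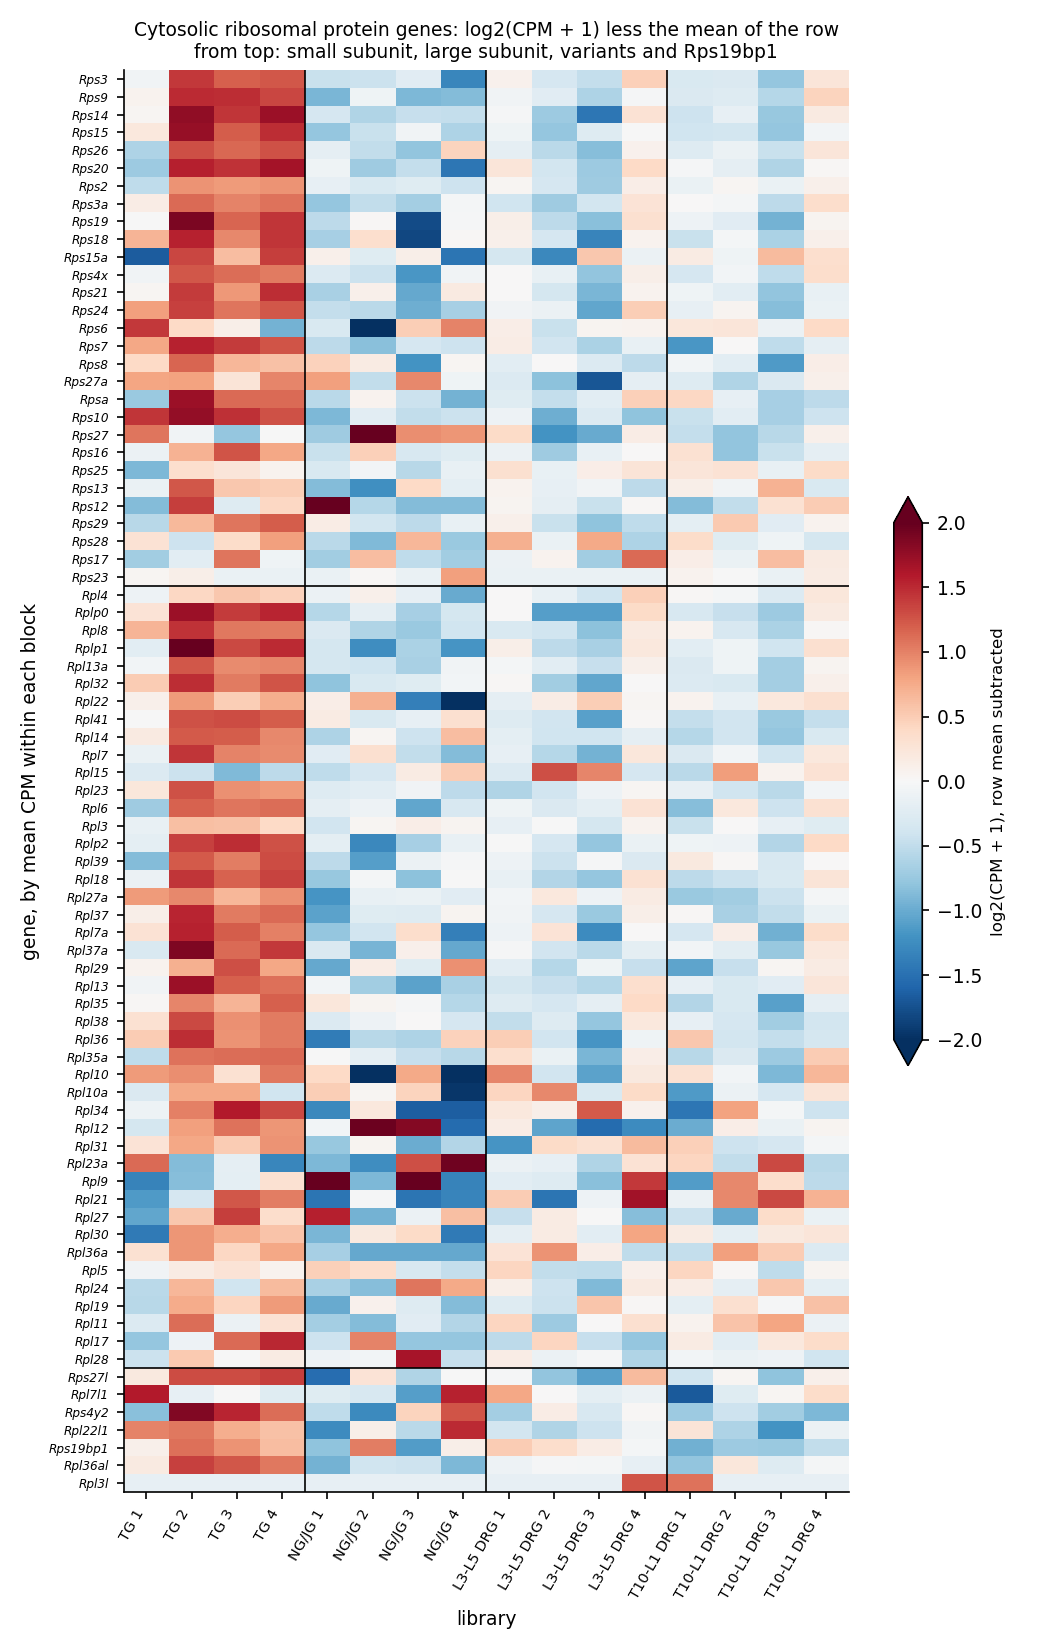
Heat map of 80 of the 83 members with over 3 counts in at least 1 library (rows) in 16 libraries (columns), as log2(CPM + 1) less the row mean, in blocks of small subunit, large subunit and variants with *Rps19bp1*, ordered by mean CPM within a block. TG libraries 2 to 4 are above all 12 libraries of the other ganglia for 46 of the 83, and TG library 1 is the lowest of TG for 68.

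For each of the 6 pairs, a fit of the 8 libraries concerned took all genes that passed the filter of edgeR, and p-values of edgeR's quasi-likelihood test were adjusted over them by the Benjamini-Hochberg method. Log2 fold changes below come from that fit, on its TMM scale. Between TG and T10-L1 DRG, 71 of the 86 members passed the filter and 20 rose in TG (adjusted p under 0.05), where 4.33% of 12914 genes rose and 5.87% were called in either direction. No member fell, where 1.54% of all genes fell. The median log2 fold change of the 71 was 1.59 (quartiles 1.23 and 1.83, range -0.42 to 2.66) and that of all genes -0.03, and 68 of the 71 were above 0. The 4 TG libraries lay above the 4 T10-L1 DRG libraries in CPM for 22 of the 71, where this held for 5.3% of all genes. DESeq2 called 44 of 80 higher in TG (9.64% of all genes). The count depended on single libraries: it was 48 without TG library 1, 1 without T10-L1 DRG library 4 and 0 without any other of the 8 libraries, while the 20 kept their direction each time. The count over all genes moved with it, from 758 to 3583 without TG library 1, to 119 without T10-L1 DRG library 4 and to 0 or 1 without any other.

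The small subunit had 9 of 27 tested members called. *Rps15*, whose product touches the tRNA in the decoding region, had 78.3, 228, 159 and 189.7 CPM in TG against 51.2, 52.1, 39.2 and 65.0 CPM in T10-L1 DRG, without overlap (log2 fold change 2.05, SE 0.41, adjusted p = 0.0271, edgeR). *Rps14*, a protein of the platform whose loss underlies the anaemia of the 5q- syndrome, had 149.8, 500.3, 396 and 478 CPM against 109, 131, 85.7 and 166 CPM (2.03, SE 0.44, adjusted p = 0.0333, edgeR). In *Rps14* TG library 1 lay within the T10-L1 DRG range, while the other TG libraries lay far above it. *Rps3*, *Rps9* and *Rps19*, the last of which is the gene most often mutated in Diamond-Blackfan anaemia, were also called with TG library 1 inside that range, at log2 fold changes of 1.68, 1.70 and 1.97. *Rps18* (1.85) and *Rps24* (1.82) were called without overlap.

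Other small subunit members did not pass the threshold. *Rps10*, another Diamond-Blackfan gene, had 11.7, 15, 12 and 10.4 CPM in TG, 1.53, 3.07, 2.35 and 2.48 in NG/JG, 3.40, 1.39, 2.88 and 1.69 in L3-L5 DRG and, for T10-L1 DRG, 2.45, 3.05, 1.97 and 2.55 CPM. TG library 1 was in this gene as high as the other TG libraries, and no TG library overlapped with any other library. Its log2 fold change from T10-L1 DRG was the largest of the members tested (2.66, SE 0.76, adjusted p = 0.0656, edgeR), which does not pass the threshold. *Rps7* showed the same order, with 16.9 to 29.3 CPM in TG and 3.67 to 9.52 CPM in T10-L1 DRG (2.18, SE 0.62, adjusted p = 0.0641, edgeR). *Rpsa*, which also serves as a laminin receptor, had 2.03, 15.7, 10.1 and 10.2 CPM in TG against 2.22 to 5.81 CPM in T10-L1 DRG, so TG library 1 was below all 4 libraries. *Rps6*, the substrate of the S6 kinases, had 31.1, 14.8, 12 and 5.27 CPM in TG and 13.0, 13.2, 10.1 and 14.8 CPM in T10-L1 DRG (0.62, SE 0.67, adjusted p = 0.652, edgeR). Here TG library 1 was the highest TG library, not the lowest. *Rps25*, needed for initiation at some viral and cellular internal entry sites, had 0.762 to 3.15 CPM in TG and 1.97 to 3.30 CPM in T10-L1 DRG (0.13, SE 0.95, adjusted p = 0.958, edgeR). *Rps27a*, which is made as a fusion with ubiquitin, had 5.50 to 9.66 CPM in TG and 2.57 to 4.80 CPM in T10-L1 DRG (1.5, SE 0.80, adjusted p = 0.315, edgeR), without overlap.

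The large subunit had 8 of 38 tested members called, 2 of them in the stalk. *Rpl8* had 384, 653, 496 and 489 CPM in TG and 249, 191, 153 and 242 CPM in T10-L1 DRG, with the lowest adjusted p of all members (1.66, SE 0.32, adjusted p = 0.0254, edgeR). All 4 TG libraries lay above the 4 of T10-L1 DRG. *Rpl41*, which encodes the smallest protein of the ribosome, had 56.0, 138, 141 and 132 CPM against 40.5, 43.1, 33.5 and 40.4 CPM (1.96, SE 0.39, adjusted p = 0.0270, edgeR). *Rpl32* and *Rpl14* were called without overlap too, at 1.77 and 1.87, as was *Rpl23* at 1.56. *Rpl13a*, whose protein can leave the ribosome and silence inflammatory mRNAs in the GAIT complex, was called at 1.48 although TG library 1 (104 CPM) lay within the T10-L1 DRG range of 67.7 to 113 CPM. Just beyond the threshold were *Rpl27a* (1.71, SE 0.45, adjusted p = 0.0522, edgeR), whose 4 TG libraries lay close together at 33.8 to 41.5 CPM against 12.1 to 20.2 CPM, and *Rpl22l1* (1.56, SE 0.43, adjusted p = 0.0596, edgeR).

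Of the 3 genes of stalk proteins, 2 were called higher in TG than in T10-L1 DRG. *Rplp0* had 291, 783, 630.2 and 690.5 CPM in TG, 161, 212, 151 and 189 in NG/JG, 241, 111, 111 and 313 in L3-L5 DRG and, for T10-L1 DRG, 193, 174, 144 and 270.1 CPM, and the TG libraries lay above those of T10-L1 DRG (2.00, SE 0.40, adjusted p = 0.0282, edgeR). *Rplp1* had 89.9, 432, 262 and 295 CPM in TG and 79.5 to 131 CPM in T10-L1 DRG, with TG library 1 inside that range (1.84, SE 0.48, adjusted p = 0.0493, edgeR). *Rplp2* had 22.8, 69.3, 74.6 and 65.1 CPM in TG and 17.2 to 34.9 CPM for T10-L1 DRG, short of the threshold (1.59, SE 0.49, adjusted p = 0.0862, edgeR). For all 3, TG libraries 2 to 4 were the highest of the 16.

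Several large subunit members did not pass the threshold. *Rpl4*, the member with the most reads, had 433, 617, 672 and 634 CPM in TG, 425, 495, 413 and 230.5 in NG/JG, 466, 416, 352 and 641 in L3-L5 DRG and, for T10-L1 DRG, 468, 450.3, 381 and 539 CPM. The groups overlapped, and the log2 fold change of TG from T10-L1 DRG was 0.73 (SE 0.29, adjusted p = 0.17, edgeR). *Rpl3*, of the peptidyl transferase centre, gave 1.00, SE 0.41, adjusted p = 0.19 (edgeR). *Rpl15*, chosen after its values were seen as the member of lowest log2 fold change, had 26.7, 24.0, 17.2 and 22.3 CPM in TG, 26.7, 80.9, 65.0 and 25.6 CPM in L3-L5 DRG and, for T10-L1 DRG, 22.2, 58.6, 34.3 and 40.0 CPM (-0.42, SE 0.45, adjusted p = 0.65, edgeR). Its highest libraries were L3-L5 DRG 2 and 3. *Rpl10a*, reported to mark ribosomes that favour certain mRNAs, had 1.93 to 5.51 CPM in TG and 0.764 to 3.60 CPM in T10-L1 DRG (1.12, SE 0.99, adjusted p = 0.569, edgeR). *Rpl38*, required for the translation of some Hox mRNAs, had 7.49 to 16.3 CPM in TG and 3.29 to 5.2 CPM in T10-L1 DRG, without overlap and short of the threshold (1.89, SE 0.74, adjusted p = 0.164, edgeR).

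**Figure D4:**
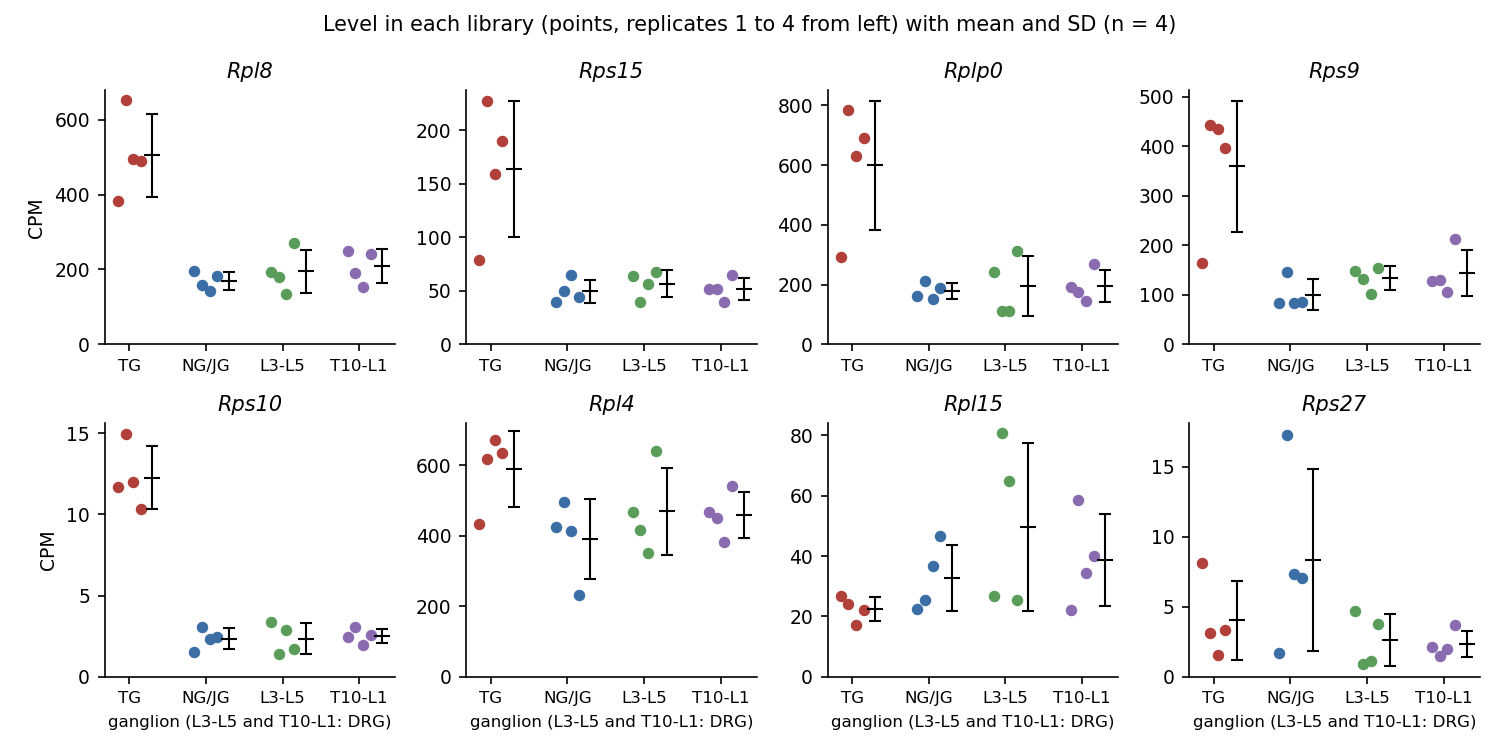
Level (CPM, linear axes from 0) of 8 members in each library, with points for replicates 1 to 4 from left to right and the mean with its SD (n = 4) beside them. *Rpl8*, *Rps15* and *Rplp0* have their 4 TG points above the T10-L1 DRG points, *Rps9* has TG library 1 within the T10-L1 DRG range, *Rps10* has TG library 1 (11.7 CPM) level with the other TG libraries, and *Rpl4*, *Rpl15* and *Rps27* overlap.

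Variants were read beside their parents, and the difference between a variant and its parent was not tested. *Rps27l*, a p53 target, rose in TG against T10-L1 DRG, at 74.0, 159.6, 159.8 and 169 against 48.8, 66.0, 36.5 and 69.2 CPM (1.74, SE 0.39, adjusted p = 0.0358, edgeR). Its parent *Rps27*, whose junction window has 2 whole copies in the genome, had 8.12, 3.15, 1.55 and 3.34 against 2.14, 1.52, 1.97 and 3.67 CPM (1.08, SE 0.95, adjusted p = 0.568, edgeR). The row *Rps4y2* had 18.3, 124, 98.1 and 73.6 CPM in TG and 19.9, 24.8, 20.4 and 17.5 CPM in T10-L1 DRG, with TG library 1 inside the latter range (2.35, SE 0.56, adjusted p = 0.0406, edgeR), and *Rps4x*, the functional X-linked gene, gave 1.45, SE 0.51, adjusted p = 0.128 (edgeR). *Rps19bp1*, a regulator of Sirt1, had 27.2, 55.1, 47.9 and 39.3 CPM in TG and 12.4, 14.8, 14.7 and 17.6 CPM in T10-L1 DRG (1.89, SE 0.46, adjusted p = 0.0432, edgeR).

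Other pairs gave values as follows. *Rpl36al* had 25.8 to 59.8 CPM in TG, 11.3 to 16.8 in NG/JG, 20.1 to 22.1 in lumbar L3-L5 DRG and 12.7 to 26.7 CPM for T10-L1 DRG. Its parent *Rpl36a* had 1.52 to 2.75 CPM in TG and 0.278, 0, 0 and 0 CPM in NG/JG. *Rpl22* had 64.1 to 109 CPM in TG and 65.5, 98.8, 22.5 and 9.20 CPM in NG/JG, and *Rpl22l1* 46.5 to 64.7 CPM in TG and 12.2, 33.5, 20.9 and 88.3 CPM in NG/JG. In NG/JG library 4 *Rpl22* was lowest and *Rpl22l1* highest of the group. *Rpl7* had 44.0 to 131 CPM in TG with library 1 lowest, and *Rpl7l1* 175, 51.0, 56.9 and 48.3 CPM with library 1 highest. *Rpl39* had 13.6, 61.8, 53.4 and 64.8 CPM in TG and 20.3 to 29.7 CPM in T10-L1 DRG, and *Rpl10* 3.95 to 7.38 and 1.15 to 5.40 CPM. *Rpl3l*, the form of striated muscle, had reads only in L3-L5 DRG library 4 (8 counts) and T10-L1 DRG library 1 (9 counts), which are the libraries with the highest shares of reads outside genes, and 0 counts in the 14 others.

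TG against L3-L5 DRG uses the same TG libraries, so its values are not independent of those above. Of the 86 members 69 passed the filter and 0 were called by edgeR's quasi-likelihood test, as were 0 (0%) of 12900 genes. At an unadjusted p under 0.05, 40 were higher in TG (10.1% of all genes), and DESeq2 called 41 of 80 (6.2% of all genes). The median log2 fold change was 1.59 against -0.03 over all genes, and 68 of 69 were above 0. The TG libraries lay above those of L3-L5 DRG for 21 members (3.96% of all genes). *Rpl8* had 384, 653, 496 and 489 CPM in TG and 193, 180.0, 135 and 271 CPM in L3-L5 DRG (1.78, SE 0.36, adjusted p = 0.0829, edgeR). *Rps10* again had the largest difference without overlap (2.76, SE 0.89, adjusted p = 0.137, edgeR). *Rpl15* had the lowest value (-0.79, SE 0.54, adjusted p = 0.493, edgeR). Without TG library 1, edgeR called 43 members, and the count over all genes went from 0 to 2038.

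TG against NG/JG gave 69 tested members and 0 called by edgeR's quasi-likelihood test, where 6 of 11769 genes (0.051%) were called, 0.034% of genes as higher in TG. At an unadjusted p under 0.05, 21 were higher in TG (5.54% of all genes), and DESeq2 called 17 of 79 (4.59% of all genes). The median log2 fold change was 1.5 against -0.05 over all genes, and 64 of 69 were above 0. The 2 groups did not overlap, with TG higher, for 24 members (5.13% of all genes). *Rplp1* had 89.9, 432, 262 and 295 CPM in TG and 81.7, 43.9, 66.9 and 45.6 CPM in NG/JG (2.41, SE 0.54, adjusted p = 0.127, edgeR). *Rpl36a* was at or below the floor in all 4 NG/JG libraries and at least 5.70-fold higher in TG, taking 3 counts per NG/JG library as the floor, and the median of the members remained 1.5 with this bound. *Rps27* had its highest mean in NG/JG, at 1.67, 17.3, 7.33 and 7.03 CPM, with overlap (-0.88, SE 1.4, adjusted p = 0.938, edgeR). Without TG library 1, 12 members and 325 of all genes were called.

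No member was called in the 3 pairs without TG. L3-L5 against T10-L1 DRG had 75 tested members, of which 0 were called by edgeR (0% of 13550 genes), 1 had an unadjusted p under 0.05 (6.07% of all genes) and DESeq2 called 0 of 82 (0.5% of all genes). That member was *Rps19bp1*, with 36.3, 32.5, 27.9 and 24.5 CPM in L3-L5 DRG, all above T10-L1 DRG as in 2.17% of all genes (0.97, SE 0.37, adjusted p = 0.79, edgeR). NG/JG against T10-L1 DRG had 71 tested and 0 called by edgeR (0.0322% of 12430 genes), with 0 at an unadjusted p under 0.05 (5.91% of all genes) and 0 of 82 by DESeq2 (6.3% of all genes). NG/JG against L3-L5 DRG had 72 tested and 0 called by edgeR (0% of 12240 genes), with 0 at an unadjusted p under 0.05 (6.04%) and 0 of 79 by DESeq2 (5.67% of all genes). The median log2 fold changes of the members in these pairs were -0.05, -0.06 and -0.03, where all genes had 0.02, 0.02 and 0.01. A difference was therefore not detectable at this spread, which does not show that the levels are equal.

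Few members separated these 3 ganglia in CPM. *Rpl41* was higher in NG/JG (45.4 to 71.0 CPM) than in T10-L1 DRG (33.5 to 43.1 CPM) without overlap (0.64, SE 0.51, adjusted p = 1, edgeR; 1.63% of all genes were higher without overlap), and *Rps2*, at the entrance of the mRNA channel, was lower (35.9 to 43.0 against 43.6 to 51.6 CPM; -0.18, SE 0.53, adjusted p = 1, edgeR; 6.41% of all genes were lower). *Rpl36al* (11.3 to 16.8 against 20.1 to 22.1 CPM) and *Rpl27a* (8.63 to 18.9 against 19.4 to 24.2 CPM) were lower in NG/JG than in L3-L5 DRG without overlap (5.74% of all genes). Their log2 fold changes were -0.47 and -0.31, short of the threshold. Low-count members were erratic in NG/JG, as the following genes show, which were chosen after their values were seen. *Rpl9* had 13.1, 0.341, 9.26 and 0 CPM and *Rps12* 11, 0.228, 0 and 0 CPM in the NG/JG libraries in replicates 1 to 4. NG/JG library 1 was highest for both.

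A test of any difference among the 4 ganglia, in a fit of all 16 libraries, took 80 members and called 12 (3.01% of all genes), among them *Rps3*, *Rps9*, *Rps14*, *Rps15*, *Rpl8*, *Rpl13a*, *Rpl32*, *Rpl41*, *Rplp0* and *Rplp1*. All 12 are among the 20 that rose in TG against T10-L1 DRG. The count was 0 without TG library 2, 3 or 4 and 23 without TG library 1, where that of all genes went from 429 to between 33 and 36 and to 1035, and DESeq2 called 48 of 80 (12.7% of all genes).

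Within the comparison of TG with T10-L1 DRG, properties of the members were set beside their fold changes. Members with at least 50% unique windows over the whole transcript had 13 of 31 called and a median log2 fold change of 1.70, and those under 50% had 6 of 39 called and a median of 1.5. *Rpl41*, which has no transcript in the annotation used here, is in neither group. Members with a C and at least 4 pyrimidines at the RefSeq start had 2 of 12 called (*Rpl14* and *Rps18*) and a median of 1.69. Members with a promoter and no such start had 11 of 41 called and a median of 1.57. For the groups at least and under 50% unique, the medians were 1.54 and 1.59 in TG against L3-L5 DRG, the reverse order. They were 1.53 and 1.48 in TG against NG/JG. These groups also differed in level (median 28.9 and 11.4 RPKM), and the part of level in the number called was not tested.

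Other lists of the translation machinery and of energy metabolism were read in the same comparison. Calls are by edgeR at an adjusted p under 0.05, where 4.33% of all genes were called higher in TG. Mitochondrial ribosomal protein genes had 23 of 75 called higher in TG (median log2 fold change 1.62), with 71 above 0. Respiratory chain subunits had 49 of 80 called (1.93), with 76 above 0, and proteasome subunits 14 of 38 (1.30), with 33 above 0. Translation factors had 9 of 40 called (0.77), with 27 above 0. They took 0.576% ± 0.0365 of reads in TG, 1.01 to 1.02 times their share in the other ganglia. Genes of ribosome biogenesis had 2 of 32 (0.18) and the mTOR pathway 0 of 19 by edgeR (0.28; 3 at an unadjusted p under 0.05 and 2 by DESeq2). Of the other short genes 114 of 429 were higher and 1 lower (1.66), and of the 500 most abundant non-member genes 57 were higher and 24 lower (0.04).

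**Figure D5:**
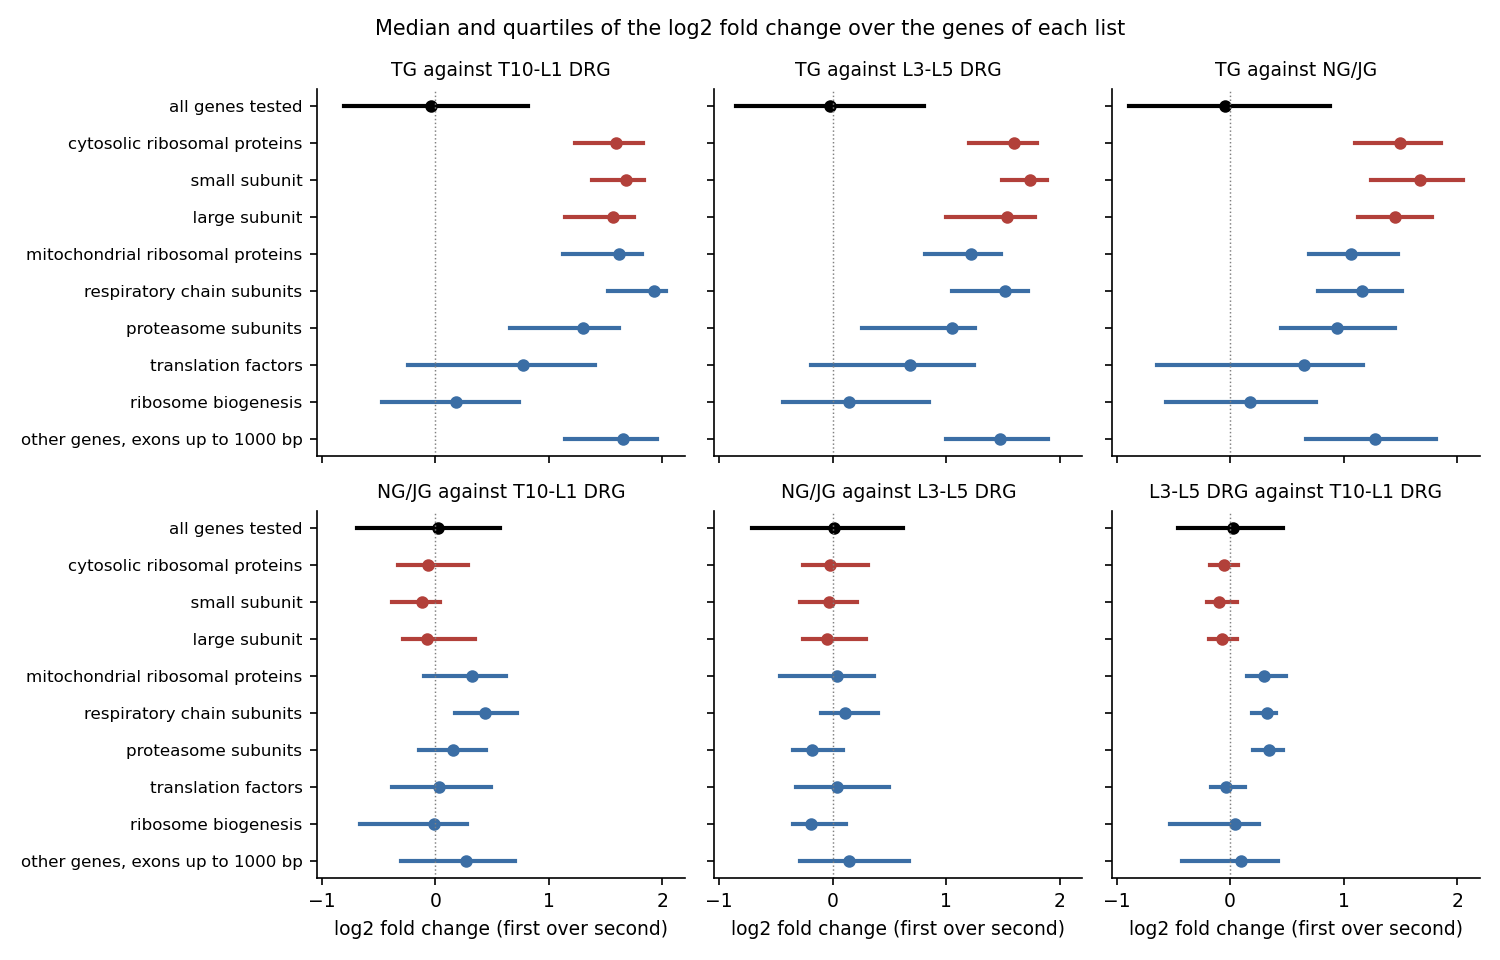
Median (point) and quartiles (line) of the log2 fold change over the tested genes of each list, for the 6 pairs of ganglia, with the first ganglion over the second. In the 3 pairs with TG the ribosomal proteins have medians of 1.59, 1.59 and 1.5 and all genes lie near 0, and in the 3 pairs without TG the ribosomal proteins lie between -0.06 and -0.03.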

How the data were processed

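RNA-seq was read from 16 libraries, 4 per ganglion, grouped by the tissue given in the labels. The authors prepared oligo dT SMART-seq2 cDNA, sequenced 50 bp single reads, demultiplexed them (with bcl2fastq by the processing notes, with CASAVA by the study's methods), aligned with TopHat2 to mm9 and counted with HTSeq (versions, annotation and strand setting are not given in the sources used here). The deposited values are raw counts per gene symbol. The counter's own rows for reads and alignments not assigned to a gene, 58.6% to 85.2% of each file's total, were left out of library sizes. 0 columns belonged to other samples.

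CPM used reads on genes, and RPKM used the length of 1 coding transcript per gene in GENCODE M1 (a CCDS transcript where tagged), on the same assembly as mm9. The short genes were chosen by their exon union. Each pair was fitted on its 8 libraries with edgeR 4.0.16 (TMM, filterByExpr, quasi-likelihood test, Benjamini-Hochberg) in R 4.3.3. DESeq2 1.42.0, RLE factors, no factors, TMM without the members, no filter, 1 fit of all libraries, the replicate block and each library left out were alternatives. Windows of 50 bases were matched exactly to mm9 on both strands, from the same transcripts. Python 3.11.15, pandas 2.3.3, numpy 2.4.6, scipy 1.17.1 and matplotlib 3.10.9 were used. The tests were checked on simulated data.

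Named members were those called in any fit, the 3 of largest fold change without overlap per pair and direction, the 5 highest and 5 lowest in RPKM, members with variant paralogs, and the stalk with *Rpsa*, *Rps6*, *Rps27a*, *Rpl13a*, *Rpl38*, *Rpl10a* and *Rps25*. A few of these are not reported here. Others were chosen after their values were seen, as was the alternative without 3 libraries together. The members and all lists were chosen with earlier results of these data known. Reads of genes with near-identical copies could be split or lost in the counting, so members with few unique windows are uncertain. Same-numbered libraries were checked for pairing: over 24 pairs the correlation of deviations ran from -0.12 to 0.18, and 6 were over 0.1. A library's best match in the second ganglion had its own number for 4 libraries in NG/JG against L3-L5 DRG. This held for 3 in TG against T10-L1 DRG, 2 in TG against L3-L5 DRG and 1 in TG against NG/JG. It held for 1 in NG/JG against T10-L1 DRG and 0 in L3-L5 against T10-L1 DRG. A pairing is neither shown nor excluded by this, and the numbers were not taken to pair the libraries.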

Additional observations from a re-analysis of the deposited data

Results flagged for a closer look

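Among 205 groups of 4 libraries tested for a library far from the rest, 14 were flagged, and chance flags about 1 in 20 groups.

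TG library 1 stood below the other TG libraries in *Rps9* (163 CPM against 397 to 442), *Rpl41* (56.0 against 132 to 141), *Rps2* (33.4 against 88.0 to 90.9) and *Rps27l* (74.0 against 159.6 to 169). It stood above them in *Rpl7l1* (175 CPM against 48.3 to 56.9). *Rpl7l1* was also set apart in NG/JG library 4 (169 CPM against 26.4 to 48.4) and in L3-L5 DRG library 1 (98.6 against 50.3 to 58.0).

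NG/JG library 2 was apart in *Rps9* (147 CPM against 82.6 to 85.5), *Rpl17* (2.39 against 0 to 0.278) and *Rpl21* (1.71 against 0 to 0.103). NG/JG library 1 was low in *Rpl27a* (8.63 CPM against 17.7 to 18.9), and L3-L5 DRG library 2 was low in *Rps6* (7.84 CPM against 11.5 to 12.2). *Rpl3l* had 1.69 CPM in L3-L5 DRG library 4 and 1.38 CPM in T10-L1 DRG library 1, and 0 in the other libraries of each group.

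Of the pseudogene rows, which are no members, *Rps19-ps3* had 32 counts in L3-L5 DRG library 2 and *Rpl34-ps1* had 7 counts in NG/JG library 2, both over the floor of 3 counts.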

How the results depend on the processing

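For TG against T10-L1 DRG, edgeR called 20 members. DESeq2 called 44, the fit without normalization factors 7, that without a filter 8, 1 fit of all 16 libraries 10, and the fit without TG library 1, L3-L5 DRG library 4 and T10-L1 DRG library 1 together 49. RLE factors and TMM without the members kept all 20. With the replicate block 0 members and 0 of all genes were called. The numbers were not taken to pair the libraries, though a pairing is not excluded. The 20 kept their direction in every alternative run. With 1 library left out, calls ranged from 0 to 48. For TG against L3-L5 DRG the 0 calls became 41 with DESeq2, 10 in 1 fit of all libraries, 38 without the 3 libraries together and 0 to 43 with 1 left out. For TG against NG/JG they became 17, 12, 12 and 0 to 12. The test of any difference called 12, DESeq2 48, the block 10, the fit without a filter 8 and leave-one-out fits 0 to 23. Calls over all genes moved in the same settings. Against T10-L1 DRG, 758 genes became 2199 with DESeq2, 459 without factors, 427 without a filter, 238 in 1 fit of all libraries and 3547 without the 3 libraries together. Against L3-L5 DRG, 0 became 1612 with DESeq2, 206 in 1 fit of all libraries and 2564 without the 3 together, and against NG/JG 6 became 856, 484 and 325. In the test of any difference 429 became 1869 with DESeq2, 184 with the block and 241 without a filter.

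Without normalization factors the median log2 fold change of the members was 1.20 against T10-L1 DRG and 1.18 against L3-L5 DRG, while that of all genes was -0.39 in both. With 1 library left out the medians ran from 1.46 to 1.83 (T10-L1 DRG), 1.46 to 1.88 (L3-L5 DRG) and 1.32 to 1.78 (NG/JG). TMM factors were 0.769 to 0.945 in TG and 0.893 to 1.14 elsewhere.

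The share was 0.394% in TG, 0.167% in NG/JG, 0.171% in L3-L5 DRG and 0.192% for T10-L1 DRG when uniquely aligned reads outside genes were added to the total, and, in that order, 0.468%, 0.191%, 0.224% and 0.215% over members with at least 50% unique windows. In NG/JG the share was 0.312% without the 20 most abundant other genes and 0.251% without the variants. With 1 library left out it was 0.629% to 0.789%, 0.265% to 0.281%, 0.280% to 0.336% and 0.277% to 0.324%. Over 33 results for single genes, 316 alternatives kept the call, 194 lost it, 18 gained it and 0 reversed. The causes of these changes were not tested.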
